A study of Mus musculus with 9 samples.

Results

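Decorin (Dcn), lumican (Lum), biglycan (Bgn), fibromodulin (Fmod), osteoglycin (Ogn), versican (Vcan), fibronectin (Fn1), Sparc, periostin (Postn) and thrombospondin 1 (Thbs1) are 10 genes for proteoglycans and glycoproteins of the fibroblast's extracellular matrix, and their RNA was measured in extracellular vesicles (EVs), the small membrane particles that cells shed. The genes were chosen by name, and every array probe designed for one of them was taken, which gave 13 probes of 55681 and 10 gene names of 36413. The EVs were shed by MEFs, primary fibroblasts of mouse embryos that were bought from a supplier. PBS-treated MEFs (5 arrays) were compared with control MEFs (4 arrays), and the comparison asks how the EV cargo of matrix RNAs differed between them. PBS is phosphate-buffered saline, and it is not stated whether cells in this group also went through electric pulses, or what the control cells received. Separate cultures are not stated for the replicates, so p-values cover the spread among these arrays, part of which could be technical. In bulk EV RNA, fewer vesicles with a transcript and fewer copies per vesicle cannot be told apart.

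Fibroblasts build and maintain the matrix of connective tissue. The small leucine-rich proteoglycans (SLRPs) decorin, biglycan, fibromodulin, lumican and osteoglycin bind collagen fibrils or growth factors and control how fibrils assemble. Decorin and biglycan form the first class of the family with chondroitin or dermatan sulfate chains, fibromodulin and lumican belong to the keratan sulfate class, and osteoglycin to a further class. Versican is a large chondroitin sulfate proteoglycan that binds hyaluronan. Fibronectin links cells to the matrix through integrins. Sparc, periostin and thrombospondin 1 are matricellular proteins, secreted regulators of how cells meet the matrix rather than structural parts of it.

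Each value rests on a probe of 60 bases, whose letters are shown for the genes the results turn on, so that a reader can see which stretch of each transcript was measured. Sequences and positions, on mouse build mm9, are those of the deposited array files. The decorin probe lies at chr10:96980233-96980292 on the plus strand and reaches the end of the reading frame, and its capitals mark the stop codon at bases 55 to 57. The biglycan probe lies at chrX:70738554-70738613 on the plus strand and the measured versican probe at chr13:89851810-89851869 on the minus strand, both with no capitals. Exons and UTRs of mm9 were not used here.
Dcn: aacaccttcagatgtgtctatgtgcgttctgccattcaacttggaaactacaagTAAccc
Bgn: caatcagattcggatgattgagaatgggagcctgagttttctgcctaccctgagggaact
Vcan: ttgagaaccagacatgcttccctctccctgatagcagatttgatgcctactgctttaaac

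For lumican, fibronectin and thrombospondin 1 the first 30 bases of the probe are given. The lumican probe lies at chr10:97035210-97035269 on the plus strand, the fibronectin probe at chr1:71632116-71632175 on the minus strand and the thrombospondin 1 probe at chr2:117952585-117952644 on the plus strand.
Lum: taagcatttgcacggttacttagtgaaact
Fn1: ggtgattatttttataagcacatgccaacg
Thbs1: gcctgtagagttagtatttctggtttttat

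Sparc had 2 probes that gave very different readings, so both are shown. The first 30 bases of probe A_55_P2046812 (chr11:55208939-55208998, minus strand) stand beside 30 bases of probe A_55_P2046807 (chr11:55208003-55208061, minus strand), in which the capitals mark AATAAA, the common polyadenylation hexamer. These letters, searched as AATAAA in the strand of the probe alone, were present in 10.1% of all 55681 probes and in 1 of the 13 described here.
Sparc, first probe: ggctgttccgcctggggataaggtgctaac
Sparc, second probe: caagtctttcaaAATAAAaagtaacaactt

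The signal is the background-corrected brightness of a probe on a 1-colour array, given here on the log2 scale after subtracting, for each array, the 75th percentile of the 8422 probes that were well above background on all 9. A value of 0 therefore equals that percentile, and 1 unit is a 2-fold step. Between 12584 and 19233 probes were well above background per array, and control replicates 3 and 4 had the fewest. The arrays lay on 2 slides. On slide 1 were PBS-treated replicates 1 to 3 with control replicates 1 and 2. On slide 2 were PBS-treated replicates 4 and 5 with control replicates 3 and 4. Markers of fibroblasts were present, with 10 of 12 well above background on each PBS-treated array and 6 to 10 on the control arrays, while Thy1 and Fap were above it on none.

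Of the 10 genes, 8 were well above background on at least 4 arrays and were tested. Relative to the other detected RNAs, Dcn rose in PBS-treated EVs, while Bgn, Fn1 and Thbs1 fell, and Lum was called higher against control arrays on which its probe was not above background (limma, Benjamini-Hochberg adjusted p under 0.05 over all 14319 genes tested), although Lum turned lower with the normexp background correction and Fn1 higher with spike-in scaling, neither past the threshold. Bgn lost its call in 11 of 26 alternative analyses and Thbs1 in 5 of 25, each keeping its direction. Ogn, Vcan and Sparc did not pass the test, and Fmod and Postn were too dim to enter it. The 5 calls among 8 genes stand beside 52.2% called among all genes. The 2 higher calls stand beside 31.5% called higher, and the 3 lower calls beside 20.7% called lower. Over probes, 5 of the 8 tested probes passed, beside 52.4% of all probes. Groups did not overlap for 4 of the 8 genes, Dcn, Lum, Fn1 and Thbs1, beside 47.0% of all genes. The share of calls among these genes was thus near that of the whole array. The median difference of the 8 genes was -0.65 on the log2 scale and that of all genes -0.02.

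**Figure D1:**
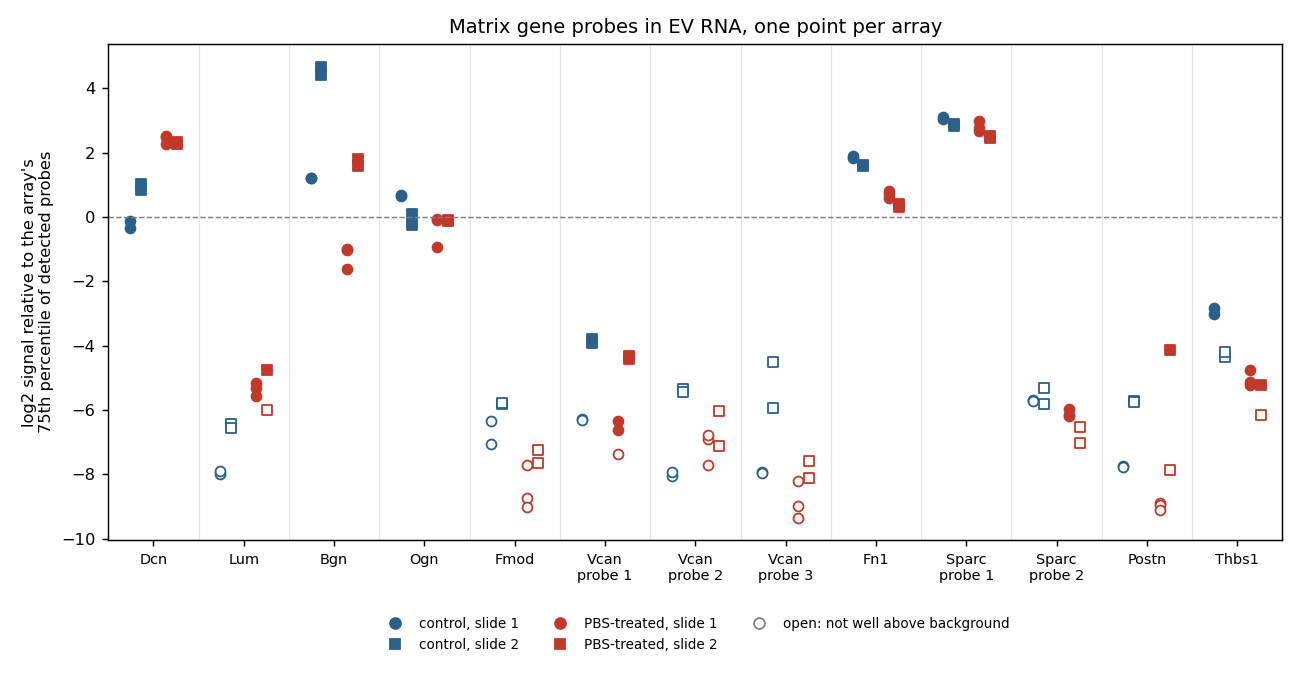
Log2 signal (y axis, relative to each array's 75th percentile of detected probes) of the 13 probes (x axis). Each array is a point, with circles for slide 1, squares for slide 2, and open symbols where the probe was not well above background. Dcn was higher on all 5 PBS-treated arrays, Fn1 lower on all 5, and the Bgn points separate by group only within a slide.

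Decorin, which binds collagen fibrils and holds transforming growth factor beta, gave the clearest rise. Its log2 signal was -0.11 and -0.33 in control replicates 1 and 2 and 1.02 and 0.83 in control replicates 3 and 4. In PBS-treated replicates 1 to 5 it was 2.53, 2.27, 2.50, 2.33 and 2.27. Every PBS-treated array lay above every control array, and the control arrays spread by slide while the PBS-treated arrays did not. The means were 2.38 ± 0.12 (SD, n = 5) and 0.35 ± 0.67 (SD, n = 4), a difference of 2.03 ± 0.29 (SE), or 4.08-fold (limma adjusted p = 0.000475). Before scaling, the probe's signal ran from 5503 to 10540 in PBS-treated and from 730 to 921 in control EVs. The difference was 2.65 ± 0.14 on slide 1 and 1.37 ± 0.14 on slide 2. This gap between the slides of -1.28 ± 0.20 passed the interaction test (limma adjusted p = 0.0139), and Dcn was the 1 gene of the 8 to do so, beside 9.35% of all genes. This call was lost with normexp (adjusted p = 0.353, and 0.435 with quantile scaling after it), with no filter (0.0585), with the value table (0.422), and without control replicate 2 (0.0546) or PBS-treated replicate 5 (0.0581). Without control replicates 3 and 4 the difference was 2.60.

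Lumican, a keratan sulfate SLRP that sets the diameter and spacing of fibrils, was dim. None of the control arrays had its probe well above background, and the log2 signal there was -7.99, -7.90, -6.45 and -6.56 in replicates 1 to 4. In PBS-treated replicates 1 to 5 it was -5.16, -5.31, -5.57, -5.99 and -4.76, and 4 of these arrays, all but replicate 4, were well above background. The groups did not overlap, with means of -5.36 ± 0.46 (SD, n = 5) and -7.23 ± 0.84 (SD, n = 4) and a limma adjusted p of 0.00456. No fold is given, because the control value is only an upper limit and the PBS-treated mean lay below the mean of that limit. On slide 2 alone the adjusted p was 0.106. With the normexp background correction, which keeps a positive signal for dim probes, the difference turned to -0.31 and did not pass (adjusted p = 0.371).

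Dcn and Lum lie next to each other on chromosome 10 in the RefSeq gene order, with Kera and Epyc, further SLRP genes, beyond Lum. Kera and Epyc were too dim to be tested. The protein-coding gene before Dcn that was tested, Btg1, was called higher, by 3.17 on the log2 scale (limma adjusted p = 5.71e-06). This call stands beside 31.5% of all genes called higher.

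Biglycan, the close relative of decorin on the X chromosome, fell. Its log2 signal was 1.21 and 1.20 in control replicates 1 and 2 and 4.68 and 4.42 in control replicates 3 and 4. In PBS-treated replicates 1 to 3 it was -0.98, -1.04 and -1.61, and in replicates 4 and 5 it was 1.81 and 1.58. Over all arrays the groups overlapped, because PBS-treated arrays of slide 2 exceeded control arrays of slide 1, yet on each slide every PBS-treated array lay below every control array. The means were -0.05 ± 1.61 (SD, n = 5) and 2.88 ± 1.93 (SD, n = 4), a difference of -2.93 ± 1.07 (SE) that stood just inside the threshold (limma adjusted p = 0.0479). With slide as a block the difference was -2.62 ± 0.17 (adjusted p = 6.82e-06). It was -2.42 ± 0.23 on slide 1 and -2.85 ± 0.17 on slide 2. The pooled call ended when PBS-treated replicate 1, 2 or 3 or control replicate 3 or 4 was left out singly, with adjusted p between 0.099 and 0.127, and in 4 settings of filter, test or source of values (0.0524 to 0.0769). With spike-ins the difference was -1.65 (adjusted p = 0.225). Without control replicates 3 and 4 together the difference was -1.25 (adjusted p = 0.399). Decorin and biglycan, the pair with the same kind of side chain, thus went in opposite directions on each slide.

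Osteoglycin was bright on all 9 arrays and did not pass. Its log2 signal was 0.67, 0.68, 0.10 and -0.26 in control replicates 1 to 4 and -0.05, -0.08, -0.92, -0.09 and -0.13 in PBS-treated replicates 1 to 5. Control replicate 4 lay below 4 of the PBS-treated arrays, and PBS-treated replicate 3 stood apart at the low end. The difference was -0.55 ± 0.27 (limma adjusted p = 0.116), with a 95% interval from -1.16 to 0.06. It was -1.02 ± 0.31 on slide 1 (adjusted p = 0.038) and -0.03 ± 0.18 on slide 2 (adjusted p = 0.89), and the gap between the slides did not pass the interaction test (adjusted p = 0.171). Without control replicates 3 and 4 the difference was -0.93 (adjusted p = 0.0258). In the RefSeq order of chromosome 13, Ogn stands beside the SLRP genes Omd and Aspn. Omd fell by 1.33 on the log2 scale (adjusted p = 0.00767), and the difference of Aspn, -0.48, did not pass (adjusted p = 0.271). The Omd probe was well above background on 5 of the 9 arrays, and with spike-ins its difference was -0.05 and did not pass. Its call was also lost with the percentile of all probes, with quantile scaling of the processed signal or after normexp, and with the value table.

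Fibromodulin, which shares binding sites on collagen with lumican, rose above background on none of the 9 arrays. Its unscaled signal ran from 2.74 to 7.22 in PBS-treated and from 5.97 to 12.5 in control EVs. No direction is drawn from these readings.

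Versican had 3 probes, and only A_55_P1960208 was measurable, with 6 of 9 arrays well above background. Its log2 signal was -6.29 and -6.30 in control replicates 1 and 2, neither above background, and -3.92 and -3.80 in control replicates 3 and 4. In PBS-treated replicates 1 to 3 it was -6.34, -6.64 and -7.36, the last not above background, and in replicates 4 and 5 it was -4.42 and -4.33. Values separated by slide more than by group. The difference was -0.74 ± 0.85 (limma adjusted p = 0.481), with a 95% interval from -2.68 to 1.20. With slide as a block it was -0.50 ± 0.20 (adjusted p = 0.0494), and without control replicates 3 and 4 it turned to 0.48 (adjusted p = 0.726). The other probes, A_55_P1960202 at chr13:89795080-89795139 and A_52_P1044655 at chr13:89850072-89850131, were above background on none of the arrays.

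Fibronectin fell on both slides by nearly the same amount. Its log2 signal was 1.89, 1.83, 1.62 and 1.57 in control replicates 1 to 4 and 0.58, 0.80, 0.71, 0.30 and 0.40 in PBS-treated replicates 1 to 5. Every PBS-treated array lay below every control array. The means were 0.56 ± 0.21 (SD, n = 5) and 1.73 ± 0.16 (SD, n = 4), a difference of -1.17 ± 0.15 (SE), or 2.25-fold lower (limma adjusted p = 0.000226). The difference was -1.16 ± 0.12 on slide 1 and -1.25 ± 0.12 on slide 2. This fall is relative to the other detected RNAs. The unscaled signal of the probe overlapped between groups, from 1344 to 3812 in PBS-treated and from 1290 to 3643 in control EVs, and relative to spike-in RNAs the difference was 0.11 (adjusted p = 0.527). With the percentile of all probes it was -0.77 and did not pass (adjusted p = 0.208).

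Sparc, a collagen-binding matricellular protein, was bright with its first probe. The log2 signal was 3.1, 3.05, 2.89 and 2.83 in control replicates 1 to 4 and 2.66, 2.76, 2.99, 2.44 and 2.53 in PBS-treated replicates 1 to 5. PBS-treated replicate 3 lay within the control range and the other PBS-treated arrays below it. The difference was -0.29 ± 0.14 (limma adjusted p = 0.12), with a 95% interval from -0.61 to 0.04. With slide as a block it was -0.32 ± 0.11 and passed (adjusted p = 0.0263), and relative to spike-ins it was 0.99 higher (adjusted p = 0.000178). The second probe, with the AATAAA letters, gave an unscaled signal of 8.03 to 30.8 where the first gave 3086 to 14833. It was well above background on PBS-treated replicates 1 to 3 and on no control array, and was not tested.

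Periostin, a matricellular protein of remodelling tissue (probe A_55_P1954086, chr3:54194840-54194899), was above background on a single array. PBS-treated replicate 4 gave an unscaled signal of 62.0, whereas the other PBS-treated arrays gave 2.58 to 4.89 and the control arrays 3.70 to 8.50. It was not tested.

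Thrombospondin 1, a matricellular protein that binds CD47 and can activate latent transforming growth factor beta, fell. Its log2 signal was -2.84 and -3.02 in control replicates 1 and 2, and -4.36 and -4.19 in control replicates 3 and 4, where it was not well above background. In PBS-treated replicates 1 to 5 it was -5.12, -4.76, -5.24, -6.15 and -5.21, with all but replicate 4 above background. The groups did not overlap. The means were -5.30 ± 0.51 (SD, n = 5) and -3.60 ± 0.78 (SD, n = 4), a difference of -1.70 ± 0.40 (SE), or 3.24-fold lower (limma adjusted p = 0.00707). Arrays not well above background enter this pooled difference, so its size is approximate. On slide 1, where all arrays were well above background, it was -2.11 ± 0.18 and passed (adjusted p = 0.000964). No direction is drawn from slide 2 alone, since the probe was not well above background on either control array there while it was on PBS-treated replicate 5. The call was lost under 5 other scalings, with adjusted p between 0.08 and 0.375 and the same direction. With spike-ins the difference was -0.42.

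A comparison of slide 2 with slide 1, added after the values were seen and fitted beside the group, showed how far these readings moved with the slide. Bgn was higher on slide 2 by 3.1 ± 0.17 on the log2 scale (limma adjusted p = 3.51e-06) and Vcan by 2.42 ± 0.20 (adjusted p = 2.31e-05). Fn1 and Thbs1 were lower on slide 2, with differences of -0.31 ± 0.10 (adjusted p = 0.0394) and -0.96 ± 0.24 (adjusted p = 0.0145). These 4 calls of 8 stand beside 33.3% of all genes. For Bgn and Vcan the move with the slide was larger than the difference between the groups. Most arrays were not well above background for Vcan on slide 1 and for Thbs1 on slide 2, so the sizes of their moves are approximate.

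Within slide 1 the fit called Dcn and Lum higher and Bgn, Ogn, Fn1 and Thbs1 lower, 6 of 8 beside 62.2% of all genes. Within slide 2 it called Dcn higher and Bgn, Vcan, Fn1 and Thbs1 lower, 5 of 8 beside 63.7% of all genes. With slide as a block, 2 were called higher and 5 lower, all but Ogn, beside 69.7% of all genes. The calls of Lum in these fits and that of Thbs1 on slide 2 set PBS-treated arrays against control arrays not above background, and are counted here without a measured direction. With slide as a block, the calls of Vcan and Thbs1 rest in part on such control arrays, on slide 1 for Vcan and on slide 2 for Thbs1.

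**Figure D2:**
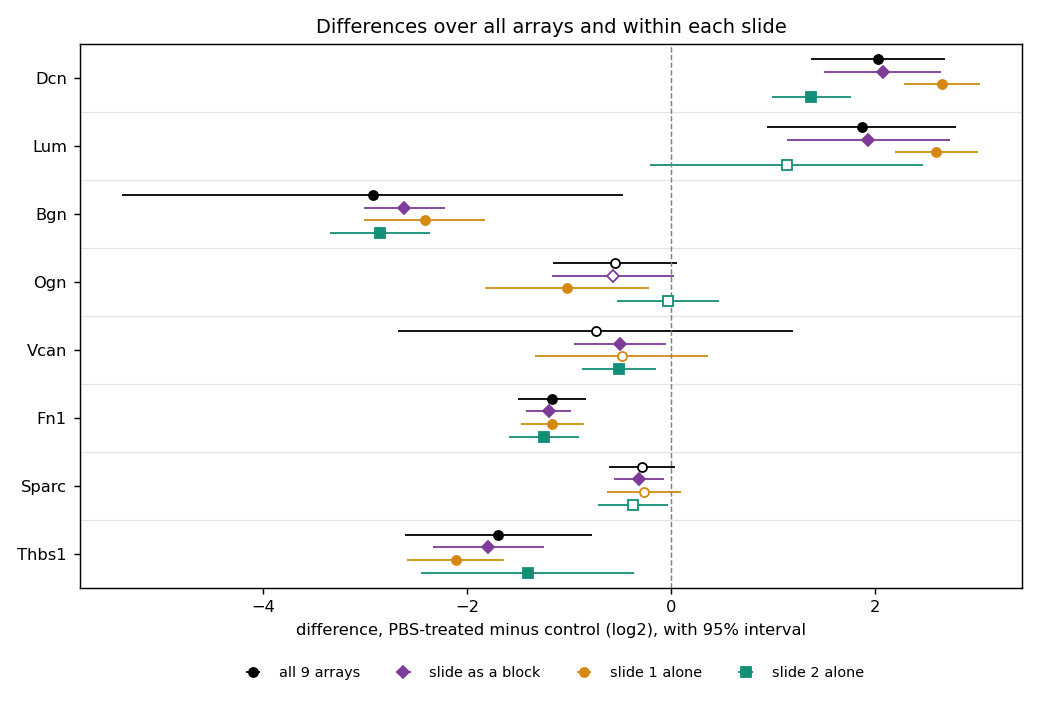
Difference of each tested gene (x axis, log2, PBS-treated minus control, with 95% interval) over all 9 arrays, with slide as a block, and on each slide alone, with filled symbols where the adjusted p passed. Bgn has a wide interval over all arrays and narrow ones within a slide, and Dcn is higher on both slides but by 2.65 on slide 1 and 1.37 on slide 2. The points of Lum, that of Thbs1 on slide 2 and that of Vcan on slide 1 rest on control arrays not above background.

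The direction of several of these genes depends on what the arrays are scaled to. When arrays were set to 7 spike-in probes, which read control RNAs mixed into the samples, this moved the median difference of all genes to 1.26, and scaling to the percentile of all probes moved it to 0.39, whereas normexp with the percentile of detected probes moved it to -0.51. The share of higher calls among all calls was 60.4% as reported, 92.5% with spike-ins, 72.3% with the percentile of all probes and 28.9% with normexp. With spike-ins, Dcn, Lum, Ogn and Sparc were called higher and none of the 8 was called lower, 4 calls beside 67.4% of all genes called and 62.3% called higher. The median of the 8 genes was then 0.63. Relative to the shift of all genes, Dcn (3.31) lay above the median of all genes, and Bgn (-1.65), Thbs1 (-0.42), Fn1 (0.11), Vcan (0.54), Ogn (0.73) and Sparc (0.99) lay below it.

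**Figure D3:**
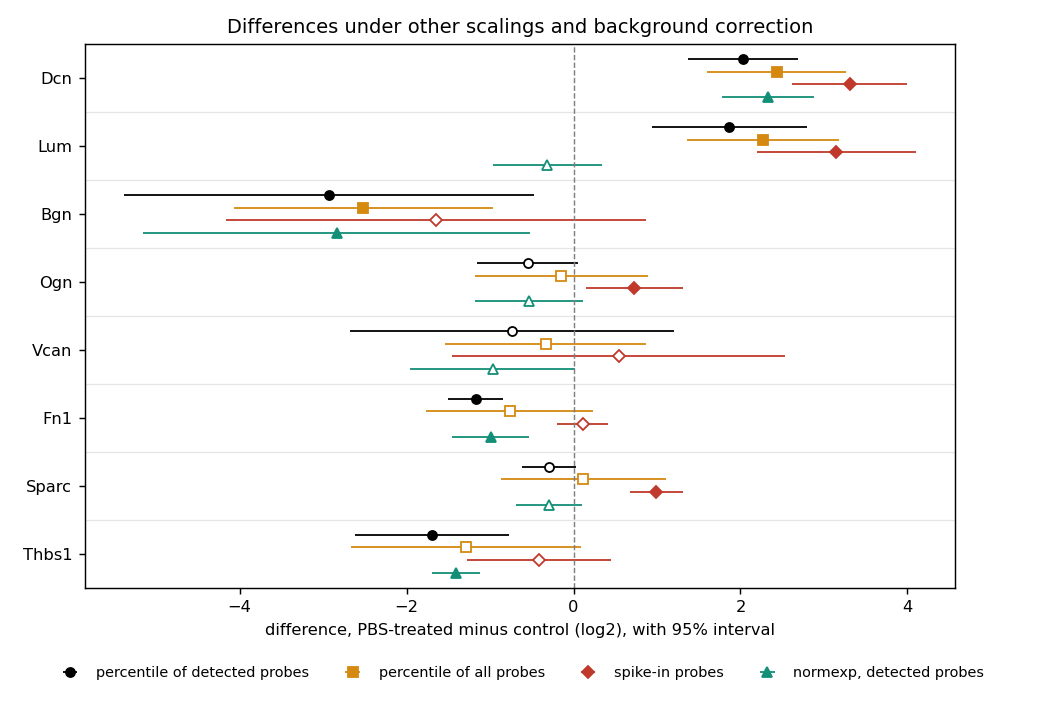
Difference of each tested gene (x axis, log2, PBS-treated minus control, with 95% interval) when arrays are scaled to the percentile of detected probes, to that of all probes or to spike-in probes, or corrected with normexp, with filled symbols where the adjusted p passed. Dcn passed and was higher in all 4, while Fn1 and Sparc moved across 0 with spike-ins, to 0.11 and 0.99.

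Other genes of the matrix were read from lists by role, whose directions are relative to the other detected RNAs. Among the other SLRPs, 4 of 12 were tested, 0 rose and 2 fell, tsukushi (Tsku, -1.78 ± 0.47) and osteomodulin (Omd, -1.33 ± 0.32). Both were dim, with Tsku well above background on 2 PBS-treated and 2 control arrays and Omd on 3 and 2. With spike-ins their differences were -0.50 and -0.05 and did not pass. Neither was called with the percentile of all probes, with quantile scaling of the processed signal or after normexp, or with the value table. With normexp before the percentile of detected probes, 4 of the list were called lower. The median difference of the list was -0.90, and 0.38 with spike-in scaling. Among the other hyalectans, link proteins and hyaluronan genes, 4 of 16 were tested. The hyaluronan receptor Cd44 rose (0.93 ± 0.24), the cartilage proteoglycan aggrecan (Acan, -1.61 ± 0.49) and the hyaluronidase Hyal2 (-0.51 ± 0.15) fell, and Hyal2 turned to 0.77 with spike-ins. Groups overlapped for Acan, and its difference with spike-ins, -0.33, did not pass. The difference of Cd44 with normexp, 0.20, did not pass. With spike-ins 3 of the list were called higher and 0 lower, and with normexp 0 higher and 2 lower. The list median was 0.19, and -0.35 with normexp.

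Among the other adhesive and matricellular glycoproteins, 14 of 34 were tested, 3 rose and 5 fell, while with spike-ins 7 were called higher and 2 lower and with normexp 3 higher and 8 lower. Osteopontin (Spp1) rose by 3.45 ± 0.16, the calcium-binding matricellular protein Smoc2 fell by 2.27 ± 0.16 and the adhesive protein Tgfbi fell by 2.03 ± 0.18. The median was -0.27, and 1.01 with spike-ins and 0.13 with the percentile of all probes. Among elastic fibre and crosslinking genes, 14 of 21 were tested, 1 rose and 5 fell, while with spike-ins 7 were called higher and 2 lower and with normexp 0 higher and 9 lower. The latent TGF-beta binding proteins Ltbp4 (-2.56 ± 0.15) and Ltbp3 (-1.83 ± 0.29) and the microfibril gene Mfap2 (-1.80 ± 0.14) had the largest falls among the genes called. The list median of -0.38 turned to 0.90 with spike-ins and 0.03 with the percentile of all probes.

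Among basement membrane glycoproteins, 9 of 15 were tested, 1 rose and 6 fell, while with spike-ins 3 were called higher and 3 lower and with normexp 0 higher and 8 lower. Laminin beta 2 (Lamb2, -4.68 ± 0.15), perlecan (Hspg2, -3.25 ± 1.08) and laminin alpha 5 (Lama5, -2.90 ± 0.26) had the largest falls and kept that direction under each scaling tried, while the list median of -0.88 turned to 0.40 with spike-ins. For Hspg2 the groups overlapped, and its difference with spike-ins, -1.97, did not pass. Among enzymes that make chondroitin and dermatan sulfate, the chains that decorin, biglycan and versican carry, 13 of 24 were tested, 6 rose and 1 fell, while with spike-ins 9 were called higher and 0 lower and with normexp 2 higher and 3 lower. Ugdh, which makes the UDP-glucuronate these chains need, rose by 2.61 ± 0.14 and the chain initiating enzyme Csgalnact2 by 2.24 ± 0.18. Csgalnact1 was well above background on none of the control arrays and was at least 2.0-fold higher in PBS-treated EVs (limma adjusted p = 0.00225), although with normexp its difference was -0.02. The median of 0.72 turned to -0.27 with normexp.

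Among proteinases that cut or process these proteins, 4 of 13 were tested and 3 fell. With spike-ins 1 was called higher and 2 lower, and with normexp 0 higher and 3 lower. Adamts1, which cleaves versican and aggrecan, fell by 1.88 ± 0.16, the serine proteinase Htra1 by 1.73 ± 0.11 and the procollagen C-proteinase Bmp1 by 1.50 ± 0.30. With spike-ins the difference of Bmp1, -0.22, did not pass, and Furin, not called as reported, was called higher (1.22). The list median was -1.61, and -0.33 with spike-ins. Among receptors, 8 of 13 were tested, 2 rose and 3 fell, while with spike-ins 4 were called higher and 0 lower and with normexp 1 higher and 4 lower. Tlr4, a receptor reported to sense biglycan, was well above background on none of the control arrays and was at least 1.82-fold higher (adjusted p = 0.000127), although with normexp its difference was -0.18. The heparan sulfate proteoglycan Sdc4, which binds fibronectin, rose by 1.86 ± 0.24. Egfr, which can bind decorin, fell by 0.98 ± 0.12, with a difference of 0.30 relative to spike-ins. The list median was -0.62, and 0.66 with spike-ins. The calls of these lists as reported stand beside the 52.2% of all genes called. Those with spike-ins stand beside 67.4% called and 62.3% called higher. Those with normexp stand beside 6545 of 14319 genes called, 1890 higher and 4655 lower.

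**Figure D4:**
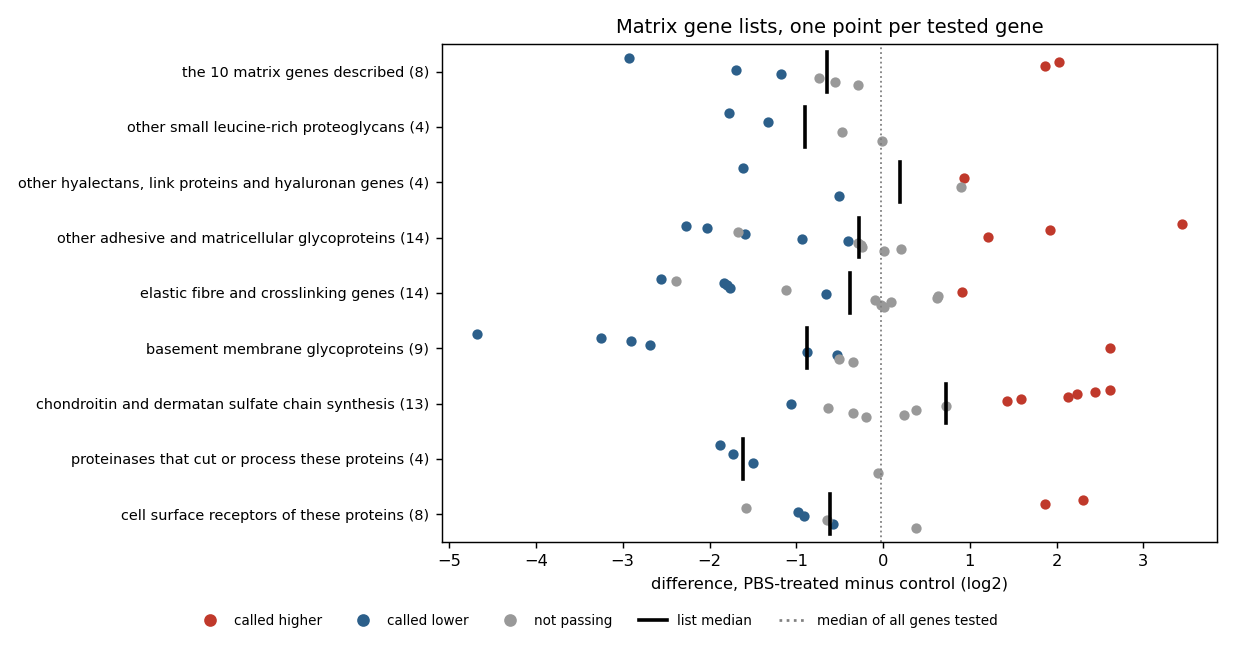
Difference of each tested gene (x axis, log2, PBS-treated minus control) in the matrix gene lists (y axis, number tested in brackets), coloured by call, with the median of each list as a black bar and the median of all genes as a dotted line. The list of proteinases has the lowest median, -1.61, and that of chondroitin and dermatan sulfate synthesis the highest, 0.72.

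The genes whose log2 signal over the 9 arrays was most like that of each matrix gene were found by Pearson correlation. All 9 points share the group and slide structure, so high values are common. Dcn was most like Rnd1 and Siah1b (r = 0.995 for each), Lum most like Slf1 (0.989) and Jam2 (0.984), and Ogn most like Tm2d3 (0.977) and Sash1 (0.968). Bgn was most like Tas1r3 (0.998) and Slc16a8 (0.997), and Vcan most like Best2 and Il1rap (0.993 for each). Fn1 was most like Aptx (0.996) and Katnal1 (0.994), Sparc most like Polr2i (0.975) and Ilkap (0.970), and Thbs1 most like Akap11 (0.990) and Tgfb2 (0.984). None of these is itself one of the matrix genes described.

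Markers of other cell types are given beside the 52.2% of all genes called, 31.5% higher and 20.7% lower. Their counts with spike-ins stand beside 67.4% of all genes called and 62.3% called higher. Of the fibroblast markers, 10 of 12 were tested, 4 rose and 2 fell (7 higher and 1 lower with spike-ins), and their summed signal, in multiples of the array's percentile, was 19.4 to 21.6 in PBS-treated and 7.96 to 16.5 in control EVs. Of 9 leukocyte markers 3 were tested, 1 rose and 2 fell (1 higher and 0 lower with spike-ins), with a sum of 1.09 to 2.09 in PBS-treated and 2.12 to 3.14 in control EVs, and Cd68, Adgre1, Lyz2, C1qa and C1qb were well above background on no array. Of 8 cartilage and bone markers 3 were tested and 1 fell (1 higher and 1 lower with spike-ins), with a sum of 0.16 to 0.22 against 0.22 to 0.45, and Col9a1, Col10a1, Bglap and Ibsp were well above background on none. Of 7 endothelial markers 2 were tested and both fell (0 called with spike-ins), with a sum of 0.12 to 0.14 against 0.25 to 0.49, and Cdh5, Tek, Tie1, Vwf and Cldn5 were above background on no array. Of 6 epithelial markers 2 were tested and 1 fell (0 called with spike-ins, sum 0.04 to 0.07 against 0.08 to 0.13, with Epcam, Cdh1 and Krt18 above background on none). Of 6 smooth muscle markers 1 was tested and did not pass (0.04 to 0.11 against 0.05 to 0.29, with Myh11 and Des above background on none). Of 5 adipocyte markers the 1 tested, Fabp4, rose, with a sum of 0.70 to 0.75 against 0.07 to 0.15, and Adipoq, Plin1 and Lpl were above background on none. These sums include probes not well above background. The lowest signal well above background, on the log2 scale, was -7.19 to -5.63 on PBS-treated and -6.03 to -4.45 on control arrays. No direction is drawn from the epithelial and smooth muscle sums, with 0 to 2 and 0 to 3 markers well above background per array. The part of other cells in the results on the matrix genes was not tested.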

How the data were processed

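Total RNA of EVs was labelled with cyanine 3 and hybridised by the authors to 9 Agilent 1-colour mouse arrays, which they quantified with Feature Extraction software of Agilent (version 10.7.3.1 in the headers of the files). For each spot, the deposited scanner output holds a background-corrected intensity on a linear scale and marks for spots well above background or non-uniform. The deposited value table holds log2 values, which ranked probes as the mean signal did (Spearman 1), with a median of 5.97 on each array. Its normalization and centring are not given in the sources used here, and it served only as an alternative. After scanning the authors used an in-house pipeline named SLIMarray.

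Control and non-uniform spots were left out and spots of a probe averaged. Log2 of the processed signal was scaled to each array's 75th percentile over the 8422 probes detected on all arrays. Probes well above background on at least 4 arrays were tested (17765), and each gene took its brightest probe (14319 genes). RefSeq accessions were looked up in a gene table of GRCm38, with 26413 probes found and 3093 of these given a newer symbol. Where a whole group lacked arrays with the probe well above background, a fold is a lower bound, written "at least". Each dim array then counted at its own signal or at the lowest signal that was well above background on it, whichever was higher. No fold is given where the bound was under 1.

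Groups were compared with limma 3.58.1 in R 4.3.3 (lmFit and eBayes, two-sided, Benjamini-Hochberg threshold 0.05), with the fit tested on simulated data. Slide was used as a block, alone, and in an interaction. Alternatives were other scalings, normexp (offset 50), the value table, other filters, the mean of probes, the methods' t-test, a replicate block and leaving out arrays. Deviations of same-numbered replicates had correlations of 0.70, 0.73, -0.54 and 0.74 for numbers 1 to 4. Slide was not removed from these, and the replicates numbered 3 lay on different slides. The correlations therefore cannot decide whether numbers mark pairs, and numbers were not taken as pairs. The number of arrays limits the precision. Figures were drawn with matplotlib 3.10.9 in Python 3.11.15.

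The members, lists and tests were chosen with earlier results of these data known. Named were all 10 members, up to 3 called genes of largest difference per list, and for each tested member the 2 genes of ordinary symbol with the highest Pearson r. Neighbouring genes and marker genes were named in addition, as were Kera, Epyc and Btg1, after their values were seen.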

Additional observations from a re-analysis of the deposited data

Results flagged for a closer look

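Among the 26 sets of values tested (13 probes in each group), 2 held an array far from the rest, where chance alone gives about 1 in 20. PBS-treated replicate 3 was low for Ogn, with a log2 signal of -0.92 and a gap of 0.907 of the group's range to the next array. PBS-treated replicate 4 was high for Postn, at -4.14, with a gap of 0.752 of the range, and it was the only array on which that probe was well above background. The difference of Dcn between PBS-treated and control EVs differed between the slides, by -1.28 on the log2 scale (slide 2 minus slide 1, limma interaction, adjusted p = 0.0139), and Dcn was higher on all arrays of PBS-treated EVs on both slides.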

How the results depend on the processing

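Under the 26 alternatives Dcn kept its direction and its call in each, with differences from 1.37 to 3.31. Directions turned for Lum with normexp before the same percentile (-0.31), for Vcan with spike-ins (0.54) and without control replicates 3 and 4 (0.48), for Sparc with the percentile of all probes (0.12) and with spike-ins (0.99), and with spike-ins for Ogn (0.73) and Fn1 (0.11). The cause was not tested. The count of matrix genes called, 5 of 8, was 3 with the percentile of all probes, with the value table and when only probes detected on all 9 arrays entered, where fewer of the genes were tested (5). The same 3 settings gave 3 called probes. Over all genes, 7474 calls became 4880 with the percentile of all probes and 4508 with probes detected on all arrays. The count of matrix genes whose difference differed between slides, 1 (Dcn), was 2 after quantile normalization of the processed signal, Dcn and Thbs1 (limma interaction, adjusted p = 0.00642 and 0.035). It was 0 with normexp before the percentile and with no filter. With quantile scaling after normexp and with the value table it stayed 1, but the gene was Thbs1 (adjusted p = 0.0301 and 0.0381) and not Dcn. These calls of Thbs1 rest in part on control arrays not well above background. Leaving out each array in turn gave 4 to 5 matrix genes called, 4 to 5 probes, 6657 to 7365 genes, and 0 to 1 matrix genes that differed between slides (0 without control replicate 2). Without PBS-treated replicate 5, which left replicate 4 as the only PBS-treated array on slide 2, that gene was Lum and not Dcn. The fit with a replicate block over replicates 1 to 4 called 5 matrix genes, 2 higher and 3 lower, and 7445 genes in all. The methods' t-test gave 5 matrix genes at its threshold and 4 after Benjamini-Hochberg. The dim probes of Lum, Vcan, Thbs1, Fmod and Postn limit what can be said of these genes.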
